A study of Homo sapiens with 12 samples.

Results

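The genes described here are 51 that act in mitosis and chromosome segregation, out of 27968 gene symbols in the deposited tables. They are a list of symbols chosen by function, drawn up with earlier results of these data known. All 51 were found and all were among the 15304 genes with enough counts to test. They were placed in 9 role groups: mitotic entry, mitotic kinases, chromosomal passenger complex, centromere and kinetochore, spindle checkpoint, anaphase and cohesion, condensin and chromosome structure, spindle and cytokinesis, and transcription factors.

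The study sequenced total RNA of 2 established cancer cell lines without any treatment. A549 is a human lung adenocarcinoma line and MDA-MB-231 a human breast adenocarcinoma line that lacks oestrogen and progesterone receptors. Each line was grown flat (2D) to about 80% confluence or in Matrigel, a basement membrane gel (3D), to day 4, all in DMEM with 10% FBS, with 3 libraries in each of the 4 groups. The stated aim was a profile of genes under control of the matrix around cancer cells, and the gel, the confluence and the day of harvest cannot be told apart in this design. Nothing in the labels tells if libraries of 1 group are separate cultures. The p-values therefore reflect the library-to-library spread only, which may be technical.

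Entry into mitosis is driven by the kinase CDK1 bound to cyclins A and B. Chromosomes are then compacted by condensin and topoisomerase II and attached to the spindle through kinetochores, while the spindle checkpoint holds back CDC20 and the anaphase-promoting complex until every chromosome is attached. Many of these genes are transcribed mainly late in the cell cycle, and their promoters often hold CCAAT boxes and CHR elements. Of these, the CHR is the element read by the MuvB complex with B-MYB (MYBL2) and FOXM1. In bulk RNA, fewer cells in mitosis and less RNA per cell cannot be told apart.

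Library totals ran from 5609327 expected counts in A549 3D replicate 2 to 28171901 in A549 3D replicate 3. Mean fragment length, as the tables imply it for genes of at least 2000 bases, fell from 180 bases in A549 2D to 137 in 3D and from 212 to 184 in MDA-MB-231. The share of counts on ribosomal RNA averaged 0.41% in A549 2D and 8.34% in its 3D libraries (3.59% to 16.6%), and 1.51% and 5.62% in those of MDA-MB-231. Small and ribosomal RNA together averaged 1.99% in A549 2D and 15.0% in 3D. In MDA-MB-231 the averages were 1.51% and 5.62%, nearly all ribosomal. Comparisons between the lines cannot tell the line apart from these library differences. A549 3D was the most scattered group, with a biological coefficient of variation of 0.18 beside 0.0377 to 0.0554 in the others. The fit gives all groups a shared spread. Exons of 16 members (CCNA2, CDC25C, CDCA3, PLK1, CENPA, NUF2, SPC24, BUB1B, SMC4, NCAPD2, NCAPG, HMMR, PRC1, ANLN, RACGAP1 and FOXM1) overlap another gene, and the strand setting of the counting is not given in the sources used here, so their counts are uncertain. Of 9 markers looked up for A549, 7 could be tested and 5 of them were higher in A549 than in MDA-MB-231 in 2D, with AKR1B10 at 3675 to 11049 TPM in A549 and at most 0.43 in MDA-MB-231. The other 2 were lower in A549 in 2D: EPCAM was at 2.96 to 3.72 TPM in A549 2D and 30.9 to 35.4 in MDA-MB-231 2D, and NKX2-1 was listed at 0 in A549 2D and was at 0.90 to 0.98 TPM in MDA-MB-231 2D. The lung lineage markers NKX2-1, SFTPC and SFTPB were at most 0.27 TPM in A549. Of 9 markers looked up for MDA-MB-231, 7 could be tested. In flat culture 4 of them were lower in the lung line and 3 higher. VIM was at 2931 to 3149 TPM in MDA-MB-231 against 251 to 656 in A549. The 3 higher in the lung line included CDH1 and CAV1. Flat CAV1 means were 704 CPM in the lung line against 583, but its TPM was lower there (371 to 382 against 501 to 536). ESR1 and PGR were at most 0.12 TPM in MDA-MB-231 and at most 0.18 in A549, so they did not separate the lines. The summed TPM of 5 fibroblast markers was 0.42 to 4.85 and of 3 endothelial markers 0.02 to 1.92 over all libraries. Among leukocyte markers CD3E was listed at 0 everywhere and PTPRC reached 0.38 TPM. CD68 was at 2.73 to 3.08 TPM in A549 2D and 6.45 to 15.2 in 3D, and at 125 to 144 in MDA-MB-231 2D and 226 to 251 in 3D; its part in the results was not tested.

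In A549, 49 of the 51 genes fell in 3D, CDC25B rose and MKI67 did not pass the test. Over all genes tested, 31.5% were lower and 34.1% higher in this comparison (edgeR's quasi-likelihood test, Benjamini-Hochberg adjusted p under 0.05, which is the threshold used throughout). The median log2 fold change of the 51 genes was -1.21, beside 0.03 over all genes tested. The deepest falls were those of CDC20 (-1.71 ± 0.12 SE), CENPA (-1.71 ± 0.094), HMMR (-1.70 ± 0.10) and CENPE (-1.69 ± 0.092), drops of 3.22- to 3.28-fold. The shallowest falls were those of NCAPD2 (-0.36 ± 0.10), SPC24 (-0.45 ± 0.095), ASPM (-0.45 ± 0.12) and ECT2 (-0.48 ± 0.11).

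In MDA-MB-231, 30 of the 51 fell, 6 rose and 15 did not pass. Over all genes tested 34.2% were lower and 33.4% higher, so the share lower among the 51 stood above the background and the share higher below it. The median log2 fold change of the 51 was -0.40, beside 0.00 over all genes. The deepest falls were those of ASPM (-1.86 ± 0.12 SE), HMMR (-1.65 ± 0.11), SPC25 (-1.61 ± 0.10) and CENPE (-1.53 ± 0.084). The 6 that rose were CDC25B, MYBL2, CDC20, BIRC5, MKI67 and UBE2C, with log2 fold changes from 0.37 to 0.97, of which UBE2C and MKI67 changed sign on the TPM scale and CDC20 and UBE2C with a trend in GC content and length taken out, as did the falls of CDK1, CENPF and TOP2A. This split moved with the scale: by limma on log2(TPM + 1), where all genes shifted by a median of -0.25, 38 members were lower (48.9% of all genes) and only CDC25B was higher (16.5% of all genes), with UBE2C at -0.10 and MKI67 at -0.043. The same scale shifted all genes by -0.38 in A549 and gave 49 members lower there, where 56.4% of all genes were lower, with CDC25B and MKI67 not passing. Of the 15 members that did not pass in MDA-MB-231, CDCA5, INCENP, NCAPH, PLK1 and TPX2 passed with only that line's libraries fitted. In that fit 5478 of 13663 genes were lower and 5487 higher. The same 5 passed with voom weights per group. All 5 changed sign with the GC and length trend taken out, and CDCA5, INCENP and PLK1 also on the log2(TPM + 1) scale.

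Tested with edgeR's glmTreat for a change larger than 2-fold, 23 members passed as lower in A549, where 5.21% of all genes were lower and 10.9% higher, and 8 in MDA-MB-231, where 6.42% were lower and 4.96% higher. By the same test 9 members had a more negative difference between the lines and 1 a less negative one (5.12% and 8.90% of all genes).

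A fall in both lines was called for 30 members. Another 15 fell in A549 and did not pass in MDA-MB-231, 4 (BIRC5, CDC20, UBE2C and MYBL2) fell in A549 and rose in MDA-MB-231 (CDC20 and UBE2C with the sign turned once that trend is taken out), and CDC25B rose in both. MKI67, the last of the 51, did not pass in A549 and rose in MDA-MB-231. These joint patterns were counted for the members only, so their shares over all genes are not known here. The plot of every library shows how the A549 3D libraries leave the 2D ones for nearly every gene while the MDA-MB-231 libraries split by gene.

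**Figure D1:**
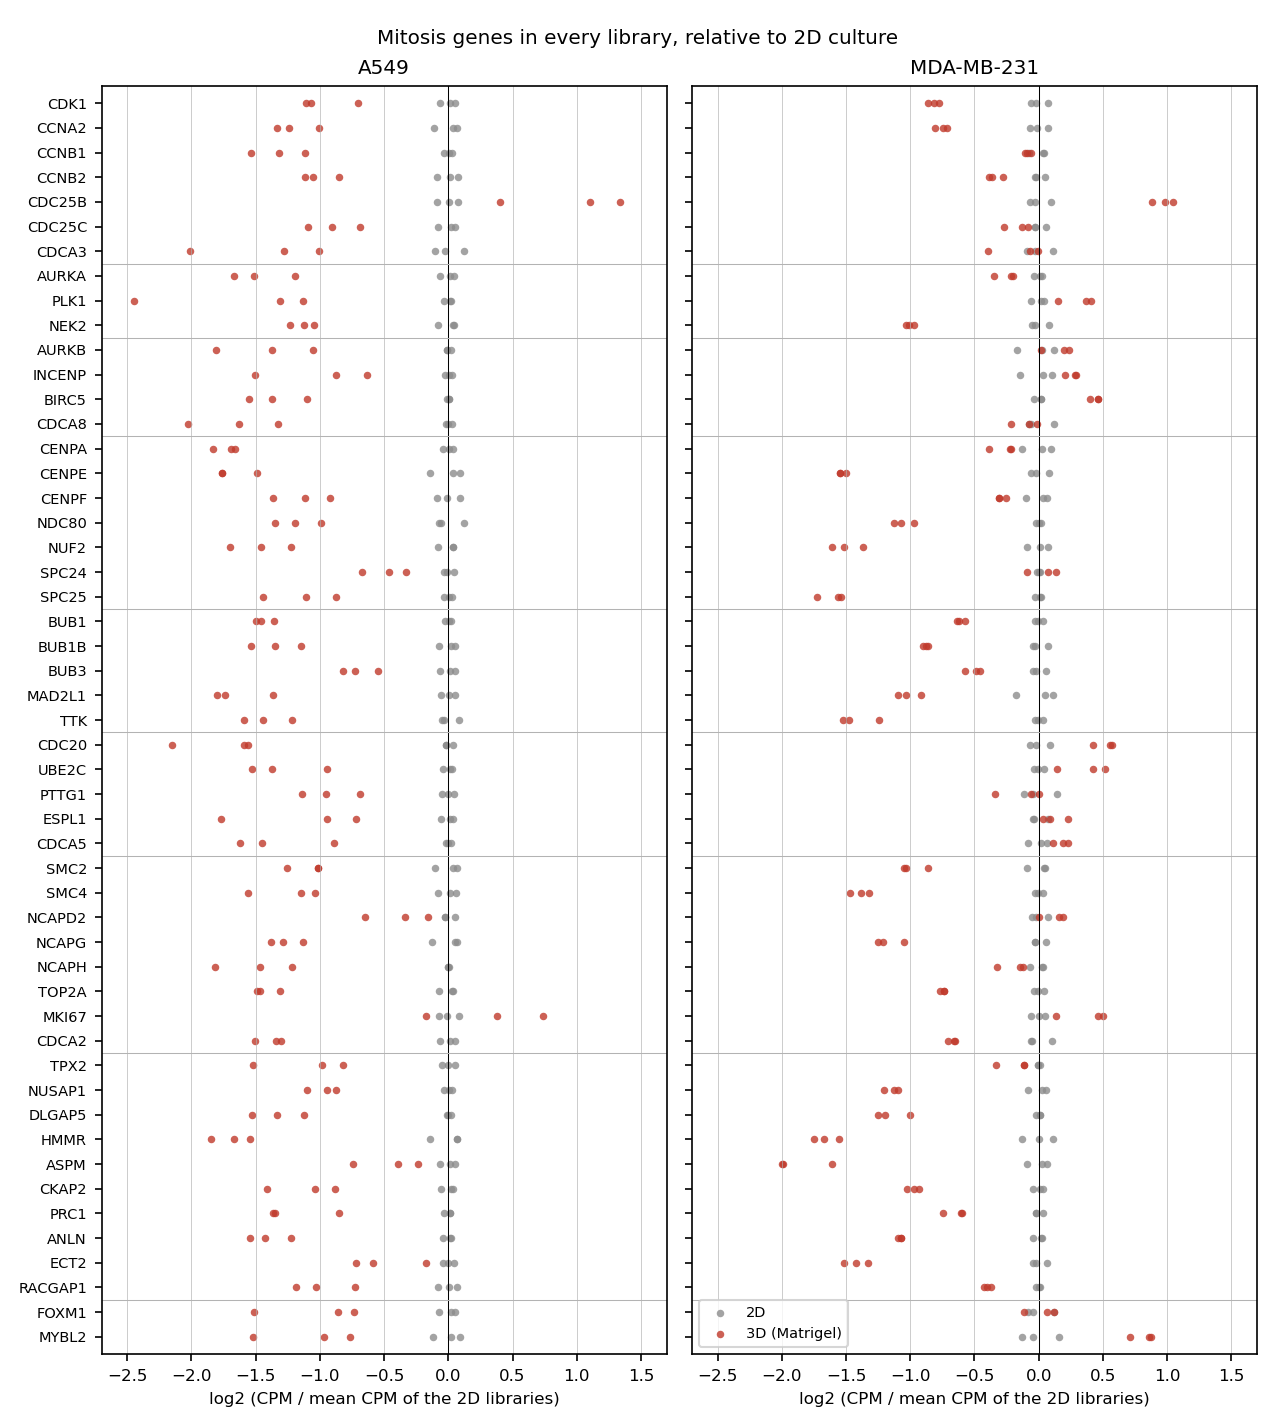
Each point is 1 library: log2 of a gene's TMM-normalised CPM over the mean of the 3 libraries of the same line in 2D, for the 51 genes in order of role group (thin lines part the groups). In A549 the 3D points lie left of the 2D points for all genes but CDC25B and MKI67. How often libraries part in this way over all genes was not counted. In MDA-MB-231 they lie left for 30 genes that passed and right for 6, of which UBE2C and MKI67 change sign on the log2(TPM + 1) scale and CDC20 and UBE2C with the GC and length trend taken out.

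In MDA-MB-231 the change of these genes followed the base composition of their transcripts. Across the 51 genes the log2 fold change and the GC content of the transcript had a Pearson r of 0.894 and a Spearman rho of 0.914, given as a description because the genes share libraries. Over 15066 genes with a GC value the same figures were 0.493 and 0.608. In A549 they were 0.261 and 0.208 for the 51 genes. Of the 17 members lowest in GC (35.3% to 40.1%) all 17 fell in MDA-MB-231, of the middle 17 there were 13, and of the 17 highest (48.3% to 60.2%) 6 rose and 11 did not pass. The medians of those 3 sets were -1.17, -0.40 and 0.18, beside -0.88, -0.36 and 0.34 for all genes of the same GC range. In A549 17, 17 and 15 of the same sets fell, with medians of -1.25, -1.16 and -0.997 beside -0.20, 0.00 and 0.11 for all genes of those ranges.

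A trend of the change on GC content and length, fitted over all genes, was then taken out, a step chosen after seeing the data. After it 48 members were lower and 1 higher in A549 (30.8% and 33.4% of all genes) with a median of -1.06. In MDA-MB-231 26 were lower and 5 higher (22.6% and 27.2% of all genes) with a median of -0.24. CDC20, UBE2C and MYBL2 no longer passed there (adjusted p = 0.637, 0.528 and 0.114). The 5 higher were then BIRC5, CCNB1, CDC25B, CENPF and MKI67, and CCNB1 (-0.085 before, 0.31 after) had changed sign. Of the 36 members called in MDA-MB-231, 5 changed sign with this step: CENPF (-0.29 before, 0.48 after), CDC20 (to -0.064), UBE2C (to -0.094), TOP2A (to 0.11) and CDK1 (to 0.13). In A549, and for the difference between the lines, no called member changed sign with it. The step also takes out any real change that runs with GC content, and those could not be separated.

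**Figure D2:**
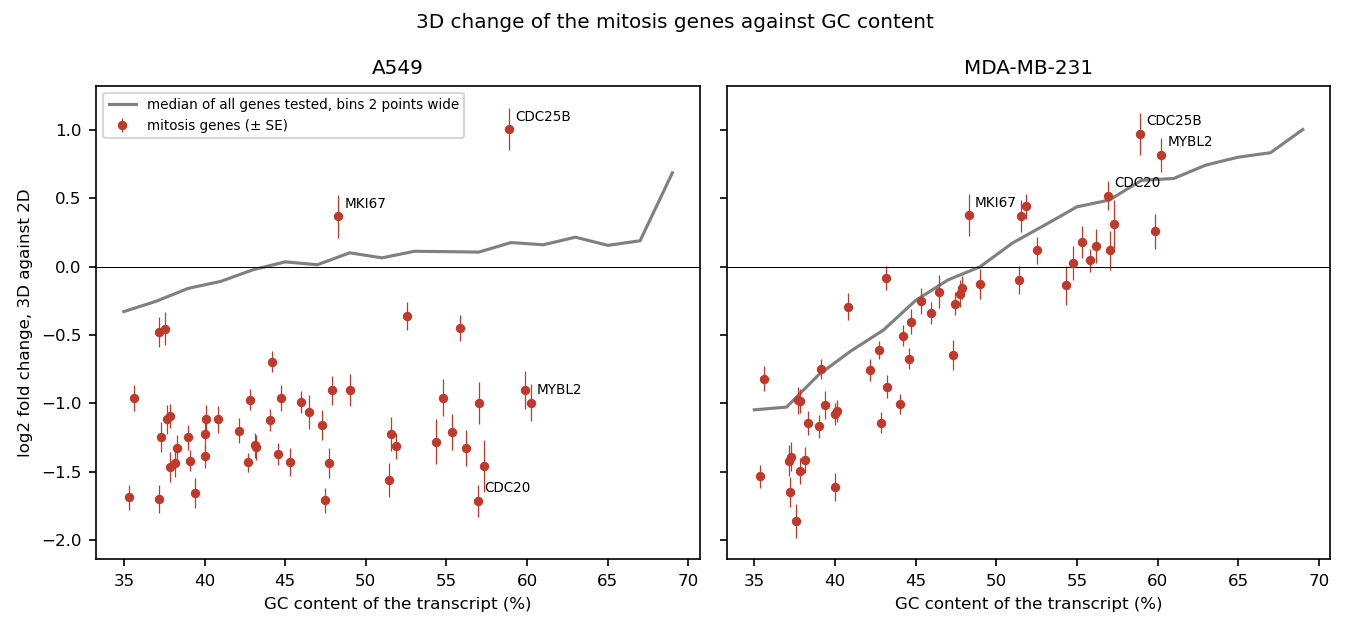
Log2 fold change of 3D against 2D (vertical) against the GC content of the transcript in percent (horizontal), for A549 and MDA-MB-231. Red points are the 51 genes with the SE of the fit, and the grey line is the median of all genes tested in bins 2 percentage points wide. In MDA-MB-231 the points rise with the grey line, from -1.86 for ASPM to 0.97 for CDC25B, and in A549 most lie near -1.21 at every GC content.

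The promoters of these genes show what they share in sequence. RefSeq start sites (GRCh38.p14, windows of 250 bases before to 50 after the start) were matched for 42 of the 51 genes, with 54 windows. The entries not matched were AURKA, BIRC5, BUB3, TTK, UBE2C, CDCA2, TPX2, RACGAP1 and FOXM1. The motifs searched on both strands were the CHR, written TTTGAA or TTCGAA, and the CCAAT box, written CCAAT; they can overlap when on opposite strands. A CHR match lay in the windows of 76.2% of the 42 genes (95% Wilson interval 61.5 to 86.5), beside 19.5% of 27305 genes with a window. For CCAAT the shares were 73.8% (58.9 to 84.7) and 39.7%, for at least 2 CCAAT matches 52.4% and 12.9%, and for both motifs 57.1% and 9.02%. Counting only bases before the start, CHR matches were in 57.1% of members and 17.2% of genes. A match of these letters is a description and not a binding site.

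The stretches below are each of 120 bases upstream of the start and free of annotated exons. They show genes with unlike patterns in the results and do not represent all members. CDC20 fell most in A549 and rose in MDA-MB-231, and CENPF and TOP2A fell in both (all 3 with the sign in MDA-MB-231 turned by the GC step). ASPM fell far more in MDA-MB-231, and ESPL1 fell in A549 and did not pass in MDA-MB-231. MKI67 fell in neither, and MYBL2 holds no match in its window. AURKB, CDCA8, CENPA and NCAPH, not shown, differed more between the lines than CENPF and TOP2A. Their stretches of 120 bases hold no CHR match. Capitals mark every match of the CHR or CCAAT motif on either strand, and each line reads 5′ to 3′ on the gene's strand.
CDC20 (chr1:43358835-43358954, plus strand): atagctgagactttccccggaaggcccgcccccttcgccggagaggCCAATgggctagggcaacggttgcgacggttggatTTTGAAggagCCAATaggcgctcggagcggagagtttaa
CENPF (chr1:214603075-214603194, plus strand): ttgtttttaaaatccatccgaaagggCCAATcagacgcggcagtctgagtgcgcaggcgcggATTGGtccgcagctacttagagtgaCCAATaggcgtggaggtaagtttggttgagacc
TOP2A (chr17:40417951-40418070, minus strand): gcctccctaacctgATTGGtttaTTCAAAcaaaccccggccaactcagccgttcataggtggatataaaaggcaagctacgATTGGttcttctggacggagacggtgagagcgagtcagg
ASPM (chr1:197146695-197146814, minus strand): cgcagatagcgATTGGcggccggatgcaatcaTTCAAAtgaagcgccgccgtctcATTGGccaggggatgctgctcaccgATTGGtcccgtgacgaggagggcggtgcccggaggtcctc
ESPL1 (chr12:53268179-53268298, plus strand): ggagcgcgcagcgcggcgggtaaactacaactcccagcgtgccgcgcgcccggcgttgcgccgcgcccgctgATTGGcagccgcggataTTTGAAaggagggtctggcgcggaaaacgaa
MKI67 (chr10:128126424-128126543, minus strand): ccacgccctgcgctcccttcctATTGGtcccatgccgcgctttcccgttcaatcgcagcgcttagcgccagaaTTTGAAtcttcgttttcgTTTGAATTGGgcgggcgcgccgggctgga
MYBL2 (chr20:43666899-43667018, plus strand): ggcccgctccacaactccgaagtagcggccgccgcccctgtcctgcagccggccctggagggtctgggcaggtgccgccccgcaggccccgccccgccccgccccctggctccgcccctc
MKI67, which did not fall, and CDC20, which fell most in A549, both hold CHR and CCAAT matches. The absence of a match in MYBL2 says only that these letters are not in its window.

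Mitotic entry was represented by CDK1, its cyclins, the CDC25 phosphatases that activate it and CDCA3, a trigger of the destruction of the CDK1 inhibitor WEE1. In A549 6 of the 7 fell and CDC25B rose; in MDA-MB-231 CDK1 (whose sign turned with the GC and length trend taken out), CCNA2 and CCNB2 fell, CDC25B rose, and CCNB1, CDC25C and CDCA3 did not pass. CCNB1, the cyclin B1 that carries CDK1 into mitosis, was at 349, 342 and 333 CPM in the A549 2D libraries and 118, 137 and 157 CPM in 3D. The 2D and 3D libraries lay far apart, and the fitted change was -1.31 ± 0.091 SE (adjusted p = 5.97e-09). It was at 354, 381 and 383 CPM in the MDA-MB-231 2D libraries and 346, 358 and 349 CPM in 3D. Those groups overlapped, with a change of -0.085 ± 0.088 (95% interval -0.26 to 0.086, adjusted p = 0.41).

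CCNA2, cyclin A2, was at 118, 116 and 105 CPM in the A549 2D libraries and 44.8, 56.3 and 47.7 CPM in 3D, a change of -1.20 ± 0.089 SE (adjusted p = 1.37e-08). It was at 274, 284 and 301 CPM in the MDA-MB-231 2D libraries and 163, 174 and 170.4 CPM in 3D, a change of -0.76 ± 0.083 (adjusted p = 9.6e-07). Every 3D library of each line lay below every 2D library. CDC25B, the phosphatase thought to start CDK1 activation at the centrosome, went the other way. It was at 95.3, 90.8 and 84.97 CPM in the A549 2D libraries and 228, 119.5 and 194 CPM in 3D, and at 95.7, 104 and 93.02 CPM in the MDA-MB-231 2D libraries and 180.0, 193 and 202 CPM in 3D. The second A549 3D library was the lowest of its group and still above the 2D libraries. The changes were 1.01 ± 0.16 (adjusted p = 3.75e-05) and 0.97 ± 0.15 (adjusted p = 4.06e-05). On the log2(TPM + 1) scale the A549 value was 0.37 and did not pass. Its relative CDC25C, which acts on CDK1 at mitotic entry, fell in A549 (-0.905 ± 0.10) and was at -0.15 ± 0.087 in MDA-MB-231 (adjusted p = 0.134). CDCA3 fell in A549 (-1.28 ± 0.16) and was at -0.14 ± 0.15 in MDA-MB-231 (adjusted p = 0.426), with overlapping libraries there.

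The mitotic kinases AURKA, PLK1 and NEK2 all fell in A549. AURKA, the Aurora kinase of centrosomes and spindle poles, was at 211, 206 and 196 CPM in the A549 2D libraries and 64.4, 71.5 and 89.2 CPM in 3D. The 2D libraries were well above all 3D libraries, with a change of -1.43 ± 0.10 SE (adjusted p = 7.46e-09). AURKA was at 327, 341 and 336 CPM in the MDA-MB-231 2D libraries and 263, 292 and 288 CPM in 3D, a shallow fall of -0.25 (adjusted p = 0.0295). That call was lost without any of 5 of the 6 MDA-MB-231 libraries (adjusted p from 0.0504 to 0.123), and with the GC and length trend taken out (-0.011, adjusted p = 0.935). NEK2, a kinase that parts the centrosomes, was at 77.1, 76.6 and 70.8 CPM in the A549 2D libraries and 31.8, 34.4 and 36.2 CPM in 3D. It was at 93.8, 92.5 and 102 CPM in the MDA-MB-231 2D libraries and 48.96, 46.9 and 47.5 CPM in 3D. The drops were 2.18-fold and 2.01-fold, with changes of -1.12 ± 0.080 (adjusted p = 7.87e-09) and -1.01 ± 0.075 (adjusted p = 1.85e-08). PLK1, the Polo-like kinase of mitotic entry and exit, fell in A549 from 116, 111 and 115 CPM to 45.9, 20.9 and 52.2 CPM (-1.46 ± 0.19, adjusted p = 6.43e-06), the second 3D library being the lowest. It was at 151, 153 and 143 CPM in the MDA-MB-231 2D libraries and 165, 192 and 198 CPM in 3D. All 3 of those 3D libraries were above 2D, and the change of 0.31 ± 0.18 did not pass (adjusted p = 0.127). The PLK1 rise passed with only the MDA-MB-231 libraries fitted, and with voom weights per group. On the log2(TPM + 1) scale the value was -0.11, and with the GC and length trend taken out -0.19, and neither passed.

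The chromosomal passenger complex corrects faulty attachments through its kinase Aurora B (AURKB), held by INCENP, survivin (BIRC5) and borealin (CDCA8). All 4 members fell in A549, whereas in MDA-MB-231 BIRC5 rose and the other 3 did not pass. BIRC5 was at 202, 202 and 200.4 CPM in the A549 2D libraries and 77.8, 68.8 and 93.8 CPM in 3D, a change of -1.31 ± 0.092 SE (adjusted p = 7.03e-09). It was at 124, 119 and 124 CPM in the MDA-MB-231 2D libraries and 161, 169 and 168 CPM in 3D, a change of 0.44 ± 0.089 (adjusted p = 0.000377). The 3D libraries were thus all below 2D in the lung line and all above in the breast line; on the log2(TPM + 1) scale the breast value was 0.02 and did not pass. CDCA8 was at 51.7, 52.3 and 53.4 CPM in the A549 2D libraries and 16.9, 12.9 and 20.9 CPM in 3D, a change of -1.56 ± 0.12 (adjusted p = 2.83e-08). It was at 162, 183 and 159.9 CPM in the MDA-MB-231 2D libraries and 145, 166 and 159.9 CPM in 3D, with overlapping groups and a change of -0.098 ± 0.10 (adjusted p = 0.432). AURKB fell in A549 (-1.33, adjusted p = 4.09e-07) and was at 86.5, 92.4 and 75.7 CPM in the MDA-MB-231 2D libraries and 85.9, 97.2 and 99.8 CPM in 3D, which overlapped (adjusted p = 0.286); with the GC and length trend taken out it was lower there (-0.48, adjusted p = 0.00416). INCENP fell in A549 (-0.902, adjusted p = 3.52e-05) and was at 71.9, 75.5 and 63.4 CPM in the MDA-MB-231 2D libraries and 80.95, 85.6 and 85.8 CPM in 3D. The INCENP libraries did not overlap, but the change of 0.26 ± 0.13 did not pass (adjusted p = 0.0852). It passed with only the MDA-MB-231 libraries fitted, and with voom weights per group. On the log2(TPM + 1) scale the INCENP value was -0.15, and with the GC and length trend taken out -0.22, and neither passed.

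Among the centromere and kinetochore genes all 7 fell in A549 and 6 fell in MDA-MB-231, of which CENPF was at 0.48 with the GC and length trend taken out. CENPE, the kinesin that carries chromosomes to the spindle equator, was at 98.5, 94.9 and 83.8 CPM in the A549 2D libraries and 27.2, 32.8 and 27.3 CPM in 3D. It was at 248, 242 and 266 CPM in the MDA-MB-231 2D libraries and 88.9, 86.03 and 86.1 CPM in 3D. The changes of -1.69 ± 0.092 SE (adjusted p = 3.94e-10) and -1.53 ± 0.084 (adjusted p = 9.39e-10) were drops of 3.22-fold and 2.90-fold, with no overlap of libraries. CENPA, the histone H3 variant that marks the centromere, was at 50.1, 51.2 and 48.6 CPM in the A549 2D libraries and 15.8, 14.1 and 15.5 CPM in 3D, a change of -1.71 ± 0.094 (adjusted p = 4.02e-10). It was at 39.2, 35.2 and 41.2 CPM in the MDA-MB-231 2D libraries and 29.4, 33.1 and 33.1 CPM in 3D, a change of -0.27 ± 0.083 (adjusted p = 0.00946). The CENPA call in the breast line was lost without MDA-MB-231 2D replicate 3 (adjusted p = 0.0539) or 3D replicate 1 (adjusted p = 0.052). The 4 subunits of the NDC80 complex, which grips the microtubule, parted: NUF2 (-1.47 ± 0.11 and -1.497 ± 0.094), NDC80 (-1.12 ± 0.10 and -1.06 ± 0.080) and SPC25 (-1.23 ± 0.12 and -1.61 ± 0.10) fell deeply in A549 and MDA-MB-231, while SPC24 fell in A549 (-0.45) and did not pass in MDA-MB-231. SPC24 was at 33.9, 33.7 and 33.4 CPM in the MDA-MB-231 2D libraries and 31.5, 36.96 and 35.4 CPM in 3D (change 0.046 ± 0.086, adjusted p = 0.667), with overlapping groups. CENPF, a coat protein of the outer kinetochore, fell in A549 (-1.12) and in MDA-MB-231 (-0.29), the latter lost without MDA-MB-231 2D replicate 3 (adjusted p = 0.0544).

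All 5 spindle checkpoint genes fell in both lines. BUB1, a checkpoint kinase, was at 157, 155 and 151 CPM in the A549 2D libraries and 54.7, 56.3 and 60.2 CPM in 3D. It was at 260.4, 265 and 272 CPM in the MDA-MB-231 2D libraries and 178, 173 and 171 CPM in 3D. The A549 fall of -1.43 ± 0.070 SE (adjusted p = 1.11e-10) was larger than the MDA-MB-231 fall of -0.61 ± 0.065 (adjusted p = 7.29e-07), and the difference passed its own test (adjusted p = 3.28e-06). MAD2L1, the MAD2 protein that captures CDC20, was at 98.8, 102 and 95.03 CPM in the A549 2D libraries and 29.6, 38.3 and 28.3 CPM in 3D, a change of -1.65 ± 0.11 (adjusted p = 3.99e-09). It was at 135, 116 and 141 CPM in the MDA-MB-231 2D libraries and 69.3, 61.2 and 63.7 CPM in 3D, a change of -1.01 ± 0.10 (adjusted p = 3.71e-07). No 3D library of either line reached its 2D libraries. BUB1B, the BUBR1 pseudokinase, fell with changes of -1.32 and -0.88, and TTK, the MPS1 kinase that starts the checkpoint, with -1.44 and -1.42. BUB3, their WD-repeat partner, had the shallowest falls of the group, -0.696 ± 0.079 and -0.505 ± 0.077. With the GC and length trend taken out, 4 of the 5 stayed lower in MDA-MB-231, the exception being BUB1 (-0.069, adjusted p = 0.399).

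The anaphase and cohesion genes release the sister chromatids. All 5 fell in A549, while in MDA-MB-231 CDC20 and UBE2C rose (both turning sign with the GC and length trend taken out) and ESPL1, PTTG1 and CDCA5 did not pass; all 5 differences between the lines passed their own test. CDC20, the activator of the anaphase-promoting complex, was at 139.8, 135 and 135 CPM in the A549 2D libraries and 46.4, 30.7 and 45.4 CPM in 3D. It was at 250.5, 270.5 and 242 CPM in the MDA-MB-231 2D libraries and 341, 379 and 374 CPM in 3D. The lung 3D libraries were all under 2D and the breast 3D libraries all over 2D, with changes of -1.71 ± 0.12 SE (adjusted p = 4.21e-09) and 0.52 ± 0.11 (adjusted p = 0.000401). UBE2C, the ubiquitin-conjugating enzyme of that complex, was at 106, 100.1 and 104 CPM in the A549 2D libraries and 39.7, 35.7 and 53.6 CPM in 3D, a change of -1.22 ± 0.13 (adjusted p = 5.12e-07). It was at 198, 209 and 203 CPM in the MDA-MB-231 2D libraries and 225, 291 and 273 CPM in 3D, a change of 0.37 ± 0.12 (adjusted p = 0.0101) that was lost without MDA-MB-231 3D replicate 2 (adjusted p = 0.063). On the log2(TPM + 1) scale the breast values were 0.087 for CDC20 and -0.10 for UBE2C, and neither passed; with the GC and length trend taken out they were -0.064 and -0.094. ESPL1 (separase, which cuts cohesin) fell in A549 (-0.997), where its 3D libraries were at 25.3, 14.3 and 29.7 CPM against 46.99, 49.3 and 50.01 CPM. It was at 45.5, 49.3 and 45.4 CPM in the MDA-MB-231 2D libraries and 47.7, 49.7 and 54.8 CPM in 3D, with overlap (adjusted p = 0.474). PTTG1 (securin, the inhibitor of separase) fell in A549 (-0.901) and was at -0.12 ± 0.11 in MDA-MB-231 (adjusted p = 0.338). CDCA5 (sororin, which protects cohesion) fell in A549 (-1.21) and was at 0.18 ± 0.12 in MDA-MB-231 (adjusted p = 0.193). The CDCA5 change in MDA-MB-231 passed with only that line's libraries fitted, and with voom weights per group. On the log2(TPM + 1) scale it was -0.24, and with the GC and length trend taken out -0.19, and neither passed. PTTG1 has near-identical gene copies, so its counts are uncertain.

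Of the condensin and chromosome structure genes 7 of 8 fell in A549, and in MDA-MB-231 5 fell, MKI67 rose and NCAPD2 and NCAPH did not pass (TOP2A changed sign with the GC and length trend taken out and MKI67 on the TPM scale). TOP2A, the topoisomerase that untangles sister DNA, was at 1389.9, 1402 and 1299 CPM in the A549 2D libraries and 486, 493 and 549.6 CPM in 3D. It was at 1165, 1142 and 1208 CPM in the MDA-MB-231 2D libraries and 704, 686 and 704 CPM in 3D. No library overlapped between cultures, with changes of -1.42 ± 0.074 SE (adjusted p = 2.45e-10) and -0.75 ± 0.073 (adjusted p = 2.82e-07). With the GC and length trend taken out the breast value became 0.11 (adjusted p = 0.217). CDCA2, a subunit that brings protein phosphatase 1 to chromosomes, was at 109, 106 and 101 CPM in the A549 2D libraries and 41.5, 37.1 and 42.6 CPM in 3D, a change of -1.37 ± 0.081 (adjusted p = 9.07e-10). It was at 65.6, 65.4 and 73.1 CPM in the MDA-MB-231 2D libraries and 43.2, 41.6 and 43.2 CPM in 3D, a change of -0.67 ± 0.078 (adjusted p = 1.55e-06). The core condensin ATPases fell in both lines, SMC2 with changes of -1.09 and -0.98 and SMC4 of -1.25 and -1.39, and so did NCAPG (-1.25 and -1.17), and none of the 3 differences between the lines passed. All 3 differences passed with the GC and length trend taken out, at -0.83 for SMC2 (adjusted p = 4.66e-05), -0.57 for SMC4 (adjusted p = 0.00502) and -0.68 for NCAPG (adjusted p = 0.000282). The MDA-MB-231 changes were then -0.02 for SMC2, which no longer passed (adjusted p = 0.86), -0.39 for SMC4 and -0.30 for NCAPG. The condensin I subunits NCAPD2 and NCAPH fell in A549 (-0.36 and -1.44) and did not pass in MDA-MB-231 (0.12, adjusted p = 0.307, and -0.20, adjusted p = 0.1). NCAPH passed as lower in MDA-MB-231 with only that line's libraries fitted, and with voom weights per group. With the GC and length trend taken out it was at 0.015 there and did not pass.

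MKI67 encodes Ki-67, the proliferation antigen that coats mitotic chromosomes. It was at 126, 113 and 118 CPM in the A549 2D libraries and 199, 105 and 155 CPM in 3D. The second 3D library lay below all 2D libraries and the other 3D libraries above them, and the change of 0.37 ± 0.16 SE (unadjusted 95% interval 0.057 to 0.68) did not pass (adjusted p = 0.0529), although it passed under RLE or upper-quartile scaling, DESeq2 and both other filters. Without A549 3D replicate 2 it was 0.56 with an adjusted p of 0.000285, and on the log2(TPM + 1) scale it was -0.22. It was at 594, 613 and 568 CPM in the MDA-MB-231 2D libraries and 649.7, 817 and 836 CPM in 3D, a rise of 0.38 ± 0.15 (adjusted p = 0.0417). That call was lost without any of the 3 2D libraries, 3D replicate 2 or 3D replicate 3 (adjusted p from 0.0695 to 0.143), and was -0.043 on the log2(TPM + 1) scale. TOP2A and MKI67, both used as proliferation markers, thus differed in A549, where TOP2A fell in every library.

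All 10 spindle and cytokinesis genes fell in A549 and 9 fell in MDA-MB-231, and with the GC and length trend taken out 9 and 7 were lower. That step ended the call of ECT2 in A549 (-0.17, adjusted p = 0.184) and, in MDA-MB-231, those of CKAP2 (from -0.98 to -0.043, adjusted p = 0.739) and RACGAP1 (from -0.40 to -0.038, adjusted p = 0.762). ANLN, the anillin scaffold of the cleavage furrow, was at 306, 304 and 293 CPM in the A549 2D libraries and 103, 112 and 128 CPM in 3D, a change of -1.39 ± 0.081 SE (adjusted p = 8.74e-10). It was at 1113, 1057 and 1103 CPM in the MDA-MB-231 2D libraries and 518, 519.7 and 511 CPM in 3D, a change of -1.08 ± 0.079 (adjusted p = 1.42e-08). All 3D libraries were below all 2D libraries of their line. HMMR, a hyaluronan-binding spindle protein, was at 115, 115 and 99.2 CPM in the A549 2D libraries and 37.5, 34.4 and 30.4 CPM in 3D. It was at 24.3, 26.7 and 28.8 CPM in the MDA-MB-231 2D libraries and 7.91, 8.34 and 9.04 CPM in 3D. The changes were -1.70 ± 0.10 (adjusted p = 9.8e-10) and -1.65 ± 0.11 (adjusted p = 7.35e-09). ASPM, a spindle pole protein, and ECT2, which starts the contractile ring, were the only members whose fall was deeper in MDA-MB-231 by the test of the difference. That difference no longer passed for ECT2 with the GC and length trend taken out (0.28, adjusted p = 0.152), while ASPM was at 0.50 (adjusted p = 0.0254). ASPM was at 194, 199 and 183 CPM in the A549 2D libraries and 146, 163 and 114 CPM in 3D, and at 289, 266 and 297 CPM in the MDA-MB-231 2D libraries and 93.04, 71.6 and 71.2 CPM in 3D. ECT2 was at 419, 433 and 407 CPM in the A549 2D libraries and 279.9, 373 and 255 CPM in 3D, and at 379, 386 and 409 CPM in the MDA-MB-231 2D libraries and 156, 146 and 137 CPM in 3D. For both genes the A549 3D libraries sat a little under 2D and the breast ones far under. The ASPM changes were -0.45 ± 0.12 and -1.86 ± 0.12, and the ECT2 changes -0.48 ± 0.11 and -1.42 ± 0.11. TPX2, which activates AURKA on the spindle, fell in A549 (-1.06 ± 0.13) and was at 658, 663 and 656 CPM in the MDA-MB-231 2D libraries and 524, 609 and 607 CPM in 3D (change -0.18 ± 0.12, adjusted p = 0.198). The TPX2 fall in MDA-MB-231 passed with only that line's libraries fitted, and with voom weights per group. With the GC and length trend taken out it was at 0.074 and did not pass. NUSAP1, DLGAP5, CKAP2, PRC1 and RACGAP1, which bundle microtubules or build the midzone, fell, with changes from -1.33 to -0.96 in A549 and from -1.15 to -0.40 in MDA-MB-231.

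The transcription factors of these genes fell in A549, while in MDA-MB-231 MYBL2 rose and FOXM1 did not pass. FOXM1 was at 96.5, 88.1 and 94.1 CPM in the A549 2D libraries and 51.3, 32.6 and 55.7 CPM in 3D, a change of -0.96 ± 0.14 SE (adjusted p = 1.62e-05). It was at 172, 193 and 167 CPM in the MDA-MB-231 2D libraries and 164, 192 and 185 CPM in 3D, with overlapping libraries and a change of 0.026 ± 0.13 (adjusted p = 0.886). MYBL2, which encodes B-MYB, was at 63.5, 54.7 and 60.4 CPM in the A549 2D libraries and 30.5, 20.7 and 34.99 CPM in 3D, a change of -0.995 ± 0.14 (adjusted p = 1.08e-05). It was at 74.01, 84.8 and 69.8 CPM in the MDA-MB-231 2D libraries and 125, 138 and 140.1 CPM in 3D, a change of 0.82 ± 0.12 (adjusted p = 2.55e-05). The MYBL2 3D libraries were all below 2D in A549 and all above 2D in MDA-MB-231; with the GC and length trend taken out the breast value was 0.24, and on the log2(TPM + 1) scale 0.40, and neither passed.

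The difference between the lines in their 3D change was tested in the same model. For 32 of the 51 genes it was more negative in A549 and for 2, ASPM and ECT2, less negative, beside 26.7% and 29.3% of all genes, and 17 did not pass. The median difference was -0.56, beside 0.07 over all genes. The largest differences were those of CDC20 (-2.23 ± 0.16 SE, adjusted p = 1.56e-08), MYBL2 (-1.82 ± 0.18, adjusted p = 8.3e-07), PLK1 (-1.77 ± 0.26, adjusted p = 3.11e-05) and BIRC5 (-1.75 ± 0.13, adjusted p = 2.62e-08). ASPM was at 1.405 ± 0.17 (adjusted p = 5.59e-06) and ECT2 at 0.94 ± 0.16 (adjusted p = 0.000103). By role group, 4 of 4 passenger complex genes, 5 of 5 anaphase and cohesion genes, both transcription factors, 5 of 7 entry genes, 2 of 3 kinases, 3 of 5 checkpoint genes, 4 of 8 condensin and chromosome structure genes, 3 of 7 kinetochore genes and 4 of 10 spindle and cytokinesis genes were more negative in A549. Among the 17 that did not pass, MKI67 (-0.0068), TTK (-0.023) and NUF2 (0.03) were closest to 0, and SPC25 (0.38 ± 0.16, adjusted p = 0.0551) was near the threshold. The others were CDK1, NEK2, CDC25B, CENPE, NDC80, BUB3, SMC2, SMC4, NCAPG, NUSAP1, DLGAP5, HMMR and CKAP2, with differences from -0.19 to 0.17.

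The difference also ran with GC content, with a Pearson r of -0.691 across the 51 genes and -0.271 across all genes. Of the 17 genes lowest in GC 3 were more negative in A549 and 2 less negative. Of the middle 17 there were 14 more negative, and of the highest 15. The medians of the 3 sets were -0.083, -0.69 and -1.16, beside 0.68, 0.34 and -0.25 for all genes of the same GC range. The share of all genes called in each range was not counted. With the GC and length trend taken out 43 were more negative and ASPM alone less negative (24.2% and 24.5% of all genes), with a median of -0.76. CDK1, NEK2, CENPE, NDC80, NUF2, BUB3, TTK, SMC2, SMC4, NCAPG, DLGAP5, HMMR and CKAP2 then passed as more negative, and SPC24, NCAPD2 and ECT2 no longer passed.

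**Figure D3:**
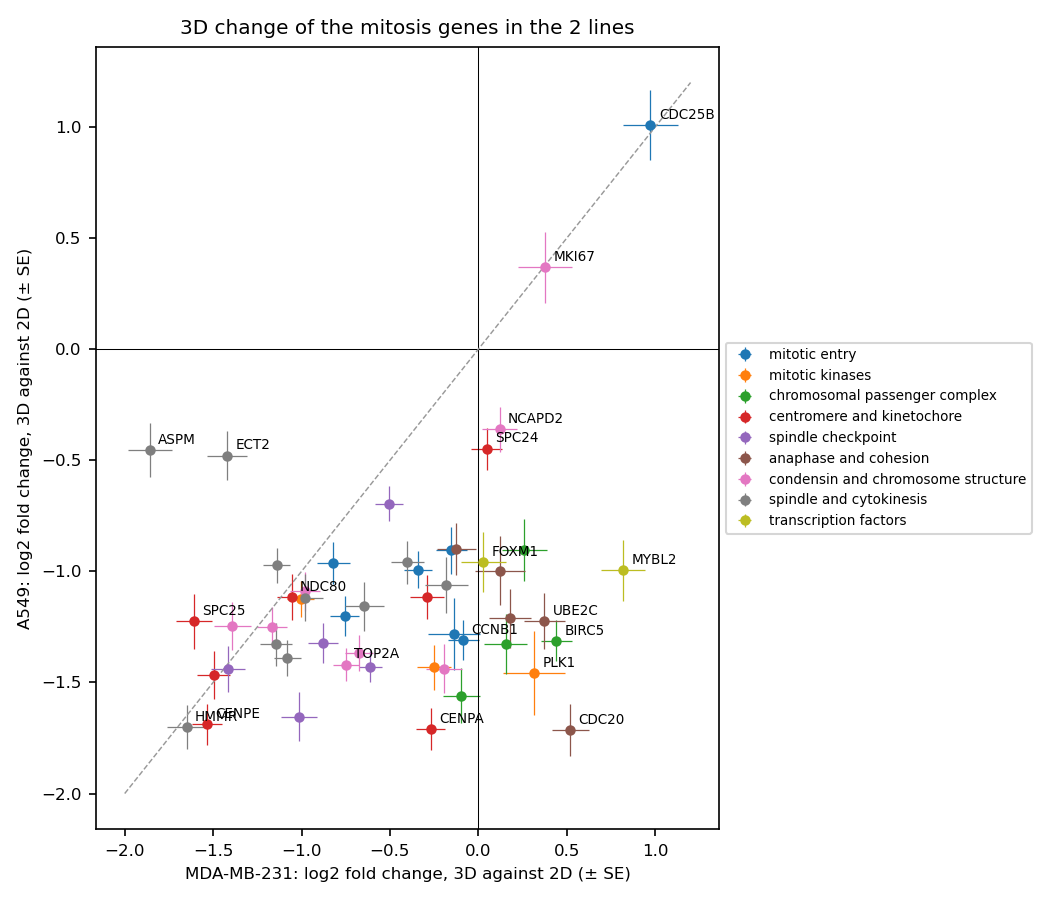
Each point is a gene, with its log2 fold change of 3D against 2D in MDA-MB-231 (horizontal) and A549 (vertical), bars giving the SE of the fit and colours the role group; on the dashed line both changes are equal. Most points lie below the dashed line, CDC20 the farthest (-1.71 and 0.52), while ASPM and ECT2 lie above it; UBE2C and MKI67 change sign in MDA-MB-231 on the log2(TPM + 1) scale and CDC20 and UBE2C with the GC and length trend taken out.

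Levels between genes were compared per length, as TPM, which is a share of all transcripts in a library. Small and ribosomal RNA genes took 32.8% to 34.8% of TPM in A549 2D and 43.7% to 53.1% in 3D, which lowers the TPM of all other genes in A549. In MDA-MB-231 they took 1.16% to 4.81%. In A549 2D the highest member was TOP2A (316 TPM, median of 3), followed by PTTG1 (237), CCNB1 (223) and UBE2C (202). CCNB1 (218 to 223) and UBE2C (192 to 208) did not overlap. The lowest was ESPL1 (9.65), next to MKI67 (13.02) and CDC25C (13.4), the latter pair overlapping. In A549 3D BUB3 (77.9) led with TOP2A (76.2) and PTTG1 (75.9), whose libraries overlapped, and CDC25B moved from rank 30 to rank 4. MKI67 moved from rank 50 to rank 32. In MDA-MB-231 2D PTTG1 (978) led, then UBE2C (709) and ANLN (532), and HMMR (20.1) and ESPL1 (15.8) were last. In its 3D libraries PTTG1 (695), UBE2C (678) and CDC20 (412) led, the first pair overlapping. Across the 51 genes log2 levels in 2D and 3D correlated with a Pearson r of 0.906 in A549 and 0.872 in MDA-MB-231, and between the lines in 2D with 0.769.

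**Figure D4:**
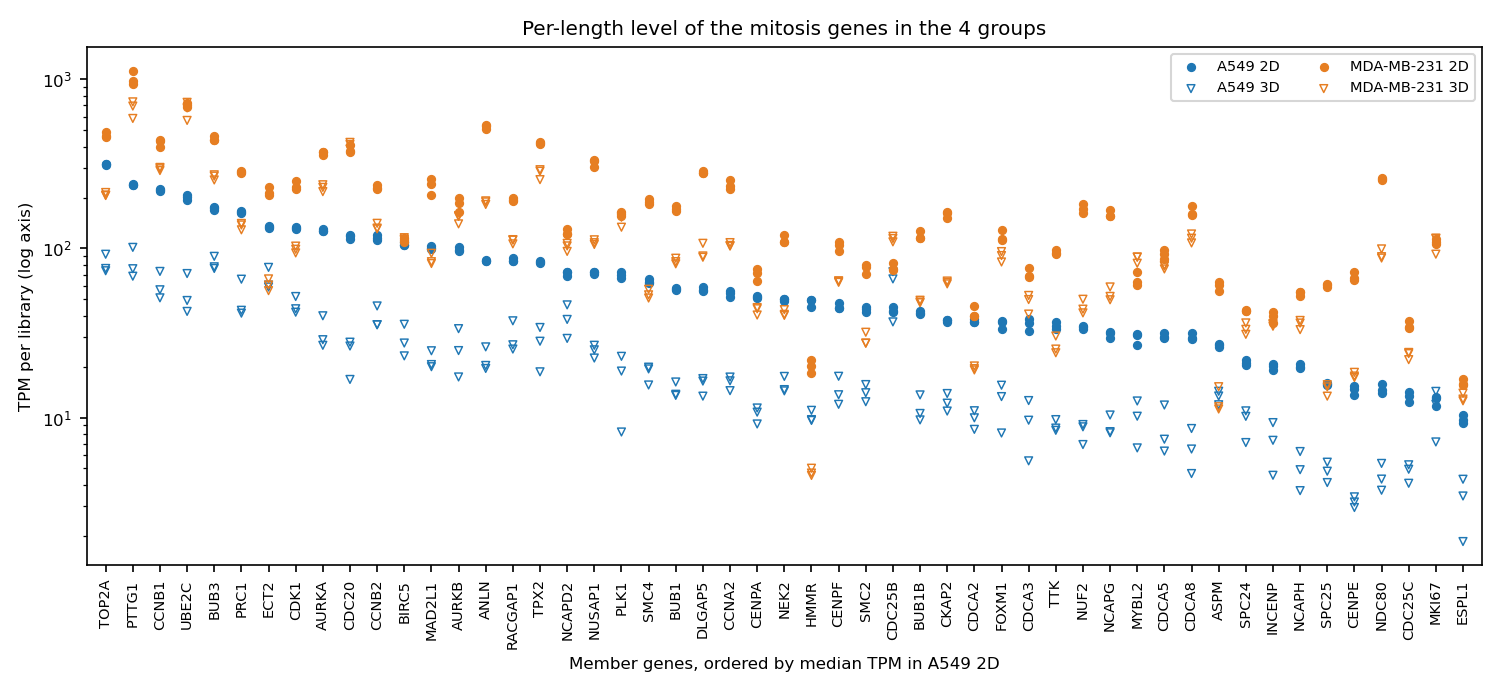
TPM of each of the 51 genes in every library on a log axis, ordered by the median in A549 2D; circles are 2D, triangles 3D, blue A549 and orange MDA-MB-231. TOP2A stands first at 316 TPM and ESPL1 last at 9.65, and HMMR is higher in A549 than in MDA-MB-231 within each culture, while its A549 3D libraries lie below its MDA-MB-231 2D libraries.

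Summed over the 51 genes, the libraries held 3739 to 3801 TPM in A549 2D and 1085 to 1393 in 3D, and 10196 to 10506 in MDA-MB-231 2D and 5899 to 6369 in 3D. The 3D mean over the 2D mean was 0.321 in A549 and 0.591 in MDA-MB-231. With small and ribosomal RNA left out of the total the ratios were 0.420 and 0.608, and on summed CPM 0.484 and 0.724. By role group, without small and ribosomal RNA, the A549 mean ± SD (n = 3) fell from 299 ± 8.45 to 109 ± 1.42 TPM for the kinetochore genes and from 932 ± 24.2 to 465 ± 17.1 for the entry genes. In MDA-MB-231 the transcription factors were at 186 ± 15.1 and 184 ± 11.2 TPM and the spindle and cytokinesis genes at 2514 ± 54.9 and 1099 ± 14.4.

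**Figure D5:**
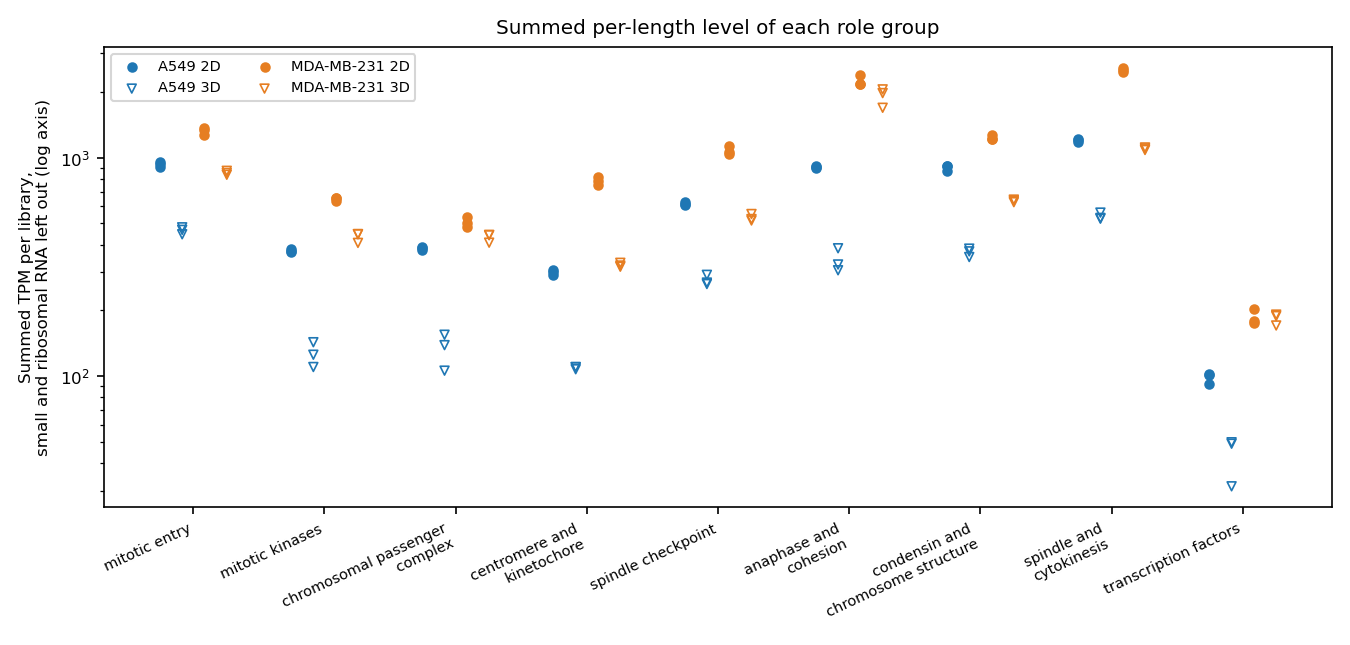
Summed TPM of each role group in every library, with small and ribosomal RNA genes left out of the total, on a log axis; circles are 2D, triangles 3D, blue A549 and orange MDA-MB-231. A549 3D is the lowest of the 4 groups in every role group, and in MDA-MB-231 the transcription factors overlap between cultures.

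Between the lines in 2D, 34 members were lower in A549 and 5 higher, beside 38.8% and 42.8% of all genes, with a median difference of -0.57. The largest differences were those of NDC80 (-3.32 ± 0.089 SE), MKI67 (-2.31 ± 0.16) and HMMR (2.04 ± 0.097). HMMR, BIRC5 (0.72 ± 0.089), CDCA2 (0.63 ± 0.075), CENPA (0.37 ± 0.081) and TOP2A (0.22 ± 0.072) were the 5 higher in A549, all but HMMR with a negative value on the TPM scale. By limma on log2(TPM + 1), where all genes shifted by -0.56, 48 were lower and only HMMR higher (62.0% and 20.8% of all genes). In the gel 44 members were lower in A549 and 3 higher, beside 39.2% and 43.9% of all genes, with a median of -1.33. NDC80 (-3.38 ± 0.10), CDCA8 (-3.14 ± 0.13) and CDC20 (-3.13 ± 0.12) differed most, and HMMR (1.99 ± 0.12), ECT2 (1.04 ± 0.11) and ASPM (0.84 ± 0.12, but -0.068 with the GC and length trend taken out) were higher. On the log2(TPM + 1) scale, where all genes shifted by -0.64, 48 were lower and only HMMR higher (62.5% and 23.2% of all genes). CDK1, CDC25B, SMC2 and CDCA2 did not pass in 3D. For a difference larger than 2-fold, 13 members were lower and 1 higher in A549 in 2D (18.8% and 19.7% of all genes), and 29 and 1 in 3D (19.3% and 24.7%).

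Other genes of the same pathways were taken as lists. Their counts stand beside 31.5% of all genes lower and 34.1% higher in A549, and 34.2% and 33.4% in MDA-MB-231. Of 28 other kinetochore genes 24 fell and 1 rose in A549, and 20 fell and 3 rose in MDA-MB-231, SPDL1 (which brings dynein to kinetochores) at -2.08 and -1.24. Of 14 cohesin genes and regulators 9 fell and 2 rose in A549, and 12 fell and 1 rose in MDA-MB-231; the cohesin protector SGO1 was at -1.48 and -1.54. All 3 condensin subunits outside the members fell in A549, and in MDA-MB-231 NCAPG2 (-0.91) and NCAPD3 (-0.31) fell while NCAPH2 rose by 0.94. Of 17 genes of the anaphase-promoting complex and its regulators 7 fell and 3 rose in A549 and 7 fell and 7 rose in MDA-MB-231, with medians of -0.08 and -0.13, beside -1.21 and -0.40 for the 51 genes. Its inhibitor FBXO5 fell in both (-1.30 and -1.23) and its RING subunit ANAPC11 rose in both (0.70 and 1.59). Of 23 other mitotic regulators 21 fell and 2 did not pass in A549, and 13 fell and 4 rose in MDA-MB-231; PLK4, the kinase of centriole duplication, was at -1.96 and -1.36. Of 10 MuvB, DREAM and B-MYB partner genes 7 fell and 1 rose in A549 and 8 fell and 1 rose in MDA-MB-231, LIN9, a core MuvB subunit, at -1.37 and -1.80. All 38 S-phase genes fell in A549 (median -0.98), and in MDA-MB-231 19 fell and 9 rose (median -0.21). With the GC and length trend taken out (22.6% of all genes lower and 27.2% higher in MDA-MB-231) the counts there moved most for cohesin, to 5 lower and 4 higher with a median of 0.04 in place of -0.76, for the other kinetochore genes, to 13 lower and 3 higher, and for the anaphase-promoting complex, to 2 lower and 4 higher. The other mitotic regulators were then 14 lower and 1 higher, the MuvB, DREAM and B-MYB partners 6 lower, the S-phase genes 18 lower and 5 higher, and of the 3 condensin subunits 1 was lower and 1 higher. In A549 cohesin moved to 6 lower and 3 higher, and the other lists by at most 1 gene in each direction.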

How the data were processed

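Total RNA, depleted of ribosomal RNA, was sequenced from 12 libraries. Per the submitters' processing notes the authors used RSEM (version not given in the sources used here) against hg19, and the deposited tables hold, per gene symbol, expected counts and TPM. No source used here gives the strand setting or the annotation.

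These expected counts were rounded to whole numbers and tested with edgeR 4.0.16 (R 4.3.3) after filterByExpr and TMM scaling, with quasi-likelihood tests of 5 comparisons in 1 model of 4 group means over 12 libraries, and p-values adjusted by Benjamini-Hochberg over all 15304 genes tested. CPM values are TMM-normalised. TPM was used for levels between genes. The SE was derived from the test, as the absolute log2 fold change divided by the square root of the quasi-likelihood F. It need not match the p-value exactly. The 95% intervals of fold changes were taken from the SE by the normal approximation. Replicate numbers were not treated as pairs. The script was tested on simulated data. Transcript GC content came from GENCODE release 29, matched by RefSeq accession or else by symbol, and exon overlaps from the same release by symbol, and promoters from RefSeq. The intervals on motif shares are 95% Wilson intervals.

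The members and lists were chosen with earlier results of these data known. A marker gene of the lists is not reported here. Named by rule were the 3 members of smallest p per role group, those that did not pass or went against the majority, and the 3 largest and 3 smallest changes; members beyond it were named to account for their group. Alternatives were other scalings, filters, limma 3.58.1 on log2(TPM + 1) or voom weights, DESeq2 1.42.0, a fold threshold, length and GC trends, a replicate block and leaving out each library.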

Additional observations from a re-analysis of the deposited data

Results flagged for a closer look

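The difference between the lines in their 3D change, the A549 log2 fold change minus that of MDA-MB-231, passed edgeR's test for 34 of the 51 genes (56.1% of all genes tested passed in either direction). Below -1 were CDC20 -2.23, MYBL2 -1.81, PLK1 -1.77, BIRC5 -1.75, UBE2C -1.597, AURKB -1.48, CDCA8 -1.46, CENPA -1.44, CDCA5 -1.39, NCAPH -1.24, CCNB1 -1.22, AURKA -1.18, INCENP -1.16, CDCA3 -1.14 and ESPL1 -1.12. Between -1 and 0 were FOXM1 -0.98, TPX2 -0.88, CENPF -0.83, BUB1 -0.82, PTTG1 -0.78, CDC25C -0.75, CDCA2 -0.69, TOP2A -0.67, CCNB2 -0.65, MAD2L1 -0.64, RACGAP1 -0.56, PRC1 -0.51, SPC24 -0.49, NCAPD2 -0.48, CCNA2 -0.44, BUB1B -0.44 and ANLN -0.31. Above 0 were ASPM at 1.40 and ECT2 at 0.94, falls that were shallower in A549. The difference ran with transcript GC content, with a Pearson r of -0.691 across the 51 genes, and the part of base composition in it was not tested beyond taking the trend out, after which 43 genes were more negative in A549 and ASPM alone less negative. Without one of several libraries ANLN did not pass.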

How the results depend on the processing

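The direction of the median over the 51 genes was negative in all 5 comparisons under every alternative run. With the replicate number as a block the counts lower and higher were 49 and 1 in A549, 30 and 6 in MDA-MB-231, 32 and 2 for the difference between the lines, 33 and 5 between the lines in 2D and 44 and 3 in 3D. Same-numbered libraries had correlations of deviations from -0.218 to 0.191 over 12 pairs, so the numbers were not used as pairs.

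In A549 2 members were higher, MKI67 joining CDC25B, with RLE or upper-quartile scaling, DESeq2, no filter, and a minimum of 1 CPM in 3 or more libraries; on the log2(TPM + 1) scale there were 0. On that scale the medians were -1.70 in A549, -0.77 in MDA-MB-231, -0.73 for the difference, -1.34 between the lines in 2D and -2.09 in 3D, with 1 member higher in MDA-MB-231 and 1 in either comparison between lines. Tested for a change beyond a log2 fold change of 1, the counts lower and higher were 23 and 0 in A549 (5.21% and 10.9% of all genes), 8 and 0 in MDA-MB-231, 9 and 1 for the difference, 13 and 1 in 2D and 29 and 1 in 3D. With the length trend removed the medians were -0.48 in MDA-MB-231, -0.52 in 2D and -1.22 in 3D, and 4 members had a higher difference. Using only the libraries compared, or leaving out small and ribosomal RNA, gave -0.60 and -0.61 in 2D. With the GC and length trend removed the medians were -1.06, -0.24, -0.76 and -0.49 for A549, MDA-MB-231, the difference and 2D, and 1 member had a higher difference. Summed CPM in place of TPM gave 3D to 2D ratios of 0.484 and 0.724 in A549 and MDA-MB-231, TPM without small and ribosomal RNA gave 0.420 in A549, and bases before the start alone gave CHR matches in 57.1%.

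Leaving out each library gave 49 lower and 1 to 2 higher in A549, 27 to 30 and 4 to 6 in MDA-MB-231, 31 to 35 and 2 to 4 for the difference (4 without A549 3D replicate 3), 32 to 34 and 4 to 5 in 2D, and 44 to 45 and 3 in 3D. The medians ran from -1.26 to -1.12, -0.42 to -0.39, -0.72 to -0.49, -0.61 to -0.53 and -1.39 to -1.24.

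On the log2(TPM + 1) scale the sign turned for the difference between the lines in the case of CDC25B -0.18 and NUF2 -0.016, and for A549 in the case of MKI67 -0.22, and for the lines in 2D in the case of BIRC5 -0.081, CDCA2 -0.16, CENPA -0.44 and TOP2A -0.57, and for MDA-MB-231 in the case of AURKB -0.28, CDCA5 -0.24, ESPL1 -0.27, FOXM1 -0.39, INCENP -0.15, MKI67 -0.043, NCAPD2 -0.29, PLK1 -0.11, SPC24 -0.35 and UBE2C -0.10. With the length trend removed the sign turned for the difference between the lines in the case of CDK1 0.011, NDC80 0.073, NEK2 0.019, SMC4 -0.054 and TTK 0.031, and for MDA-MB-231 in the case of AURKB -0.24, CENPF 0.033, NCAPH 0.13, SPC24 -0.12 and UBE2C -0.16. With RLE scaling the sign turned for the difference between the lines in the case of MKI67 0.0097. With upper-quartile scaling the sign turned for the difference between the lines in the case of MKI67 0.024 and TTK 0.0084. With DESeq2 the sign turned for the difference between the lines in the case of MKI67 0.0060. With a minimum of 1 CPM in 3 libraries the sign turned for the difference between the lines in the case of MKI67 0.0037. With the GC and length trend removed the sign turned for the difference between the lines in the case of NUF2 -0.49, NUSAP1 -0.10 and SMC4 -0.57, and for the lines in 3D in the case of ASPM -0.068, and for MDA-MB-231 in the case of AURKB -0.48, CCNB1 0.31, CDC20 -0.064, CDCA5 -0.19, CDK1 0.13, CENPF 0.48, ESPL1 -0.13, FOXM1 -0.24, INCENP -0.22, NCAPH 0.015, PLK1 -0.19, SPC24 -0.43, TOP2A 0.11, TPX2 0.074 and UBE2C -0.094. Leaving out 1 library, the values reached both signs for the difference between the lines in the case of CDC25B -0.15 to 0.24, CKAP2 -0.27 to 0.024, HMMR -0.13 to 0.045, MKI67 -0.23 to 0.18, NDC80 -0.20 to 0.0035, NUF2 -0.043 to 0.12 and TTK -0.12 to 0.078, and for MDA-MB-231 in the case of FOXM1 -0.020 to 0.093 and SPC24 -0.0026 to 0.11. Of these, CDC20, UBE2C, MKI67, CDK1, CENPF and TOP2A in MDA-MB-231, BIRC5, CDCA2, CENPA and TOP2A between the lines in 2D, and ASPM between them in 3D had passed. On the log2(TPM + 1) scale all genes shifted by a median of -0.38 in A549, -0.25 in MDA-MB-231 and -0.56 between the lines in 2D. The cause of the sign turns was not tested. A549 3D had the largest spread of the 4 groups, and the fit shares its estimate of spread over all of them. It therefore bears on calls of small changes in both lines. With only the MDA-MB-231 libraries fitted, CDCA5, INCENP, NCAPH, PLK1 and TPX2 also passed in that line.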
